A study of Homo sapiens with 6 samples.

Results

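Replication-dependent histone genes were followed in polyA RNA of AALE cells, a human airway line derived from bronchial basal epithelium and transformed with SV40 and the telomerase gene hTERT. Members were the genes named H1-1 to H1-6, H2AC, H2BC, H3C or H4C followed by digits, which older tables name HIST1H to HIST4H. Of the 69 such symbols, 34 were matched to identifiers of the deposited count table of 57736 genes, 33 by the current symbol and 1, H2AC18, by its older name HIST2H2AA3. The other 35 symbols were not matched by identifier and are not analysed here. The 34 members were 6 H1, 9 H2A, 10 H2B, 5 H3 and 4 H4 genes, with 23 on chromosome 6, 10 on chromosome 1 and H4C16 on chromosome 12. Of them, 29 had a count in at least 1 library, 10 passed the low-count filter and 5 had no count in any library.

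AALE cells were transduced either with a lentiviral control vector or with a lentiviral vector that overexpresses NRG1, the gene of neuregulin 1, a growth factor that activates ERBB receptors. Stable pools were selected and grown in small airway growth medium, and both groups therefore carry a lentiviral vector as well as the immortalising genes. There were 3 control libraries and 3 NRG1 libraries. Nothing in the labels says that the libraries of a group came from separate cultures, so a p-value here reflects variation among these preparations, which could be technical only.

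The genes of this family encode the bulk of the histones that package newly copied DNA, and their mRNAs accumulate in S phase. The mature mRNA of such a gene normally ends in a short stem-loop, bound by the stem-loop binding protein SLBP, in place of a polyA tail. Some members, among them H1-2, H2AC6, H2BC4, H2BC5, H2BC12 and H2BC21, are also known to give longer polyadenylated transcripts, which have been described in cells that leave the cell cycle or differentiate. A library prepared from polyA RNA therefore sees only part of the family's mRNA, and the values here are levels in polyA RNA, not total histone mRNA.

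The stem-loop sequences are shown because they set these mRNAs apart from other mRNAs of the cell. A stem-loop of 16 bases, with 6 base pairs around a loop of 4 bases, was found in a GENCODE 29 transcript of 17 of the 34 members. The search ran on the transcript strand for runs of that length that begin with GG, end with CC and hold TTNT from the last base of the 5′ arm of the stem into the loop, and kept those whose 6 stem positions all paired, G with T included. Each line gives 26 bases of 1 transcript in 5′ to 3′ direction, with the stem-loop in capitals and 5 flanking bases on each side.
H2AC6: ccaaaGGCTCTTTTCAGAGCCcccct
H2AC25: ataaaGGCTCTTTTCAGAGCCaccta
H2BC21: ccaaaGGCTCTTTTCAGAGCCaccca
H2AC18: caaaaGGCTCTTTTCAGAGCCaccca
H2AC11: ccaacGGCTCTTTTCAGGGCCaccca
H2BC5: ccaaaGGCTCTTTTAAGAGCCacgca
H4C11: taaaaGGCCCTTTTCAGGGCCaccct
The 17 members shared 4 stem-loops. The form shown for H2AC6 was found in 11 members, that of H4C11 in 3 H4 genes, that of H2BC5 also in H2BC4, and that of H2AC11 in H2AC11 only. For the other 17 members no transcript held these letters, which says only that the annotated transcripts, many of them little longer than the coding sequence, do not include them.

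The annotated transcripts differed in how far they ran beyond the stem-loop. In 12 members a transcript went on for more than 100 bases, and in 8 of these 12 a transcript of the gene held the polyadenylation hexamer AATAAA in its last 50 bases. The longest stretch beyond the stem-loop was 1128 bases in H2AC6, 1729 in H2BC21, 1761 in H2AC11, 390 in H2AC25 and 1154 in both H3C14 and H3C15. In 5 members, H2AC13, H2AC18, H2BC5, H2BC13 and H4C11, the transcript that held the stem-loop ended within 100 bases of it, 6 bases past it in H4C11. The hexamer was also found near a transcript end in H2AC18, H2BC5 and H4C11, and in H2BC11, which has no annotated stem-loop. In H4C11 it lies before the stem-loop, since the 6 bases that follow the stem-loop do not hold it.

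The regions upstream of the genes are shown for H2AC6 and H2BC21, members with high levels whose starts lie close to that of a second histone gene on the opposite strand. Each run is 250 bases from RefSeq (GRCh38.p14) that end just before the gene's start, with the octamer ATTTGCAT, the CCAAT box and the TATA motif TATAAA in capitals wherever they were found on either strand. The H2AC6 region is chr6:26123922-26124171 on the plus strand and the H2BC21 region is chr1:149886683-149886932 on the minus strand.
H2AC6: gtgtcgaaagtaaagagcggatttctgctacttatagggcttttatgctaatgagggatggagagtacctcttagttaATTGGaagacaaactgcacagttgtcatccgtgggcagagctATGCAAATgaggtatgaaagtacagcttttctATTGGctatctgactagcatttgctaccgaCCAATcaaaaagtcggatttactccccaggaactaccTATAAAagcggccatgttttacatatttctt
H2BC21: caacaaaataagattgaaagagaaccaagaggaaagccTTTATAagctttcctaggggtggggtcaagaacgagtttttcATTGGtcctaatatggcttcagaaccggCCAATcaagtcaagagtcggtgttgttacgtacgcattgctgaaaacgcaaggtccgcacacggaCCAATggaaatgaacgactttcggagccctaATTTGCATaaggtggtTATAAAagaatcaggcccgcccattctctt
The table held promoters of 300 bases (250 before the start and 50 after it) for 32 of the 34 members. The octamer was found in 13 of these 32, against 1.77% of all 35116 promoters in the table. It was in 6 of 9 H2A, 6 of 10 H2B and 1 of 4 H3 promoters, where the H3 promoter, that of H3C4, is the same window as that of H2AC7 and is counted under both genes, and in 0 of 6 H1 and 0 of 3 H4 promoters. The CCAAT box was found in 29 of 32, all but the 3 H4 promoters, against 34.6% of all promoters. TATAAA was found in 22 of 32, against 11.5%. These matches describe the letters of the windows, and members of a divergent pair also share much of their window.

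The total expected count was between 8612234 and 13207620 per library. NRG1 itself stood at 11.6, 7.85 and 12.2 CPM (counts relative to the library's total, scaled by TMM) in the control libraries and at 6630, 3844 and 3771 CPM in the NRG1 libraries, so the targeted gene matched every label. Control 3 and NRG1 1 had the lowest mean correlation of log2 CPM with their own group, 0.943 and 0.946 against 0.959 to 0.967 for the other libraries. Results are therefore also given without these libraries, as 2 control against 2 NRG1 libraries. NRG1 2 and NRG1 3 differed from each other far less than other libraries of 1 group did, with a chi-square per degree of freedom of 2.73 against 18.4 to 63.3 for the other pairs within a group. All 11 airway basal markers were detected, and their sum was 9747 to 14353 CPM in control and 6888 to 8203 CPM in NRG1, with KRT5 at 3133 to 6934 CPM and TP63 at 157 to 227 CPM over all libraries. Single basal markers differed in both directions: mean CPM was 957 for control against 176 for NRG1 in KRT14 (log2 fold change -2.45), 2803 against 1406 in KRT17 and 122 against 14.8 in NGFR (-3.05), all without overlap. In KRT15 it was 11.7 against 57.5 (2.30), and the groups overlapped. None of the 11 passed adjustment in edgeR. Summed over 9 fibroblast markers, the level was 45.2 to 71.0 CPM in control and 22.2 to 28.8 CPM in NRG1, with COL1A1 the largest part. Leukocyte markers (7 genes) summed to 22.3 to 34.3 CPM in control and 9.96 to 28.1 CPM in NRG1, nearly all from CD68 and CD14, with CD3E at 0 in every library and PTPRC at 0 in all NRG1 libraries. Endothelial markers (5 genes matched) summed to 1.08 to 2.09 and 2.24 to 4.07 CPM, with CDH5 at 0. Ciliated and secretory markers (8 genes) summed to 436 to 569 CPM in control and 318 to 528 CPM in NRG1, mostly from TUBB4B. The part of these markers in the histone values was not tested.

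Together the 34 histone genes were a trace of the polyA RNA, and their summed level was higher in every NRG1 library than in any control. The sum over all members, which no filter on low values touches, was 33.0, 25.0 and 21.6 CPM in the control libraries (numbered 1 to 3 in this order throughout) against 40.3, 52.4 and 52.4 CPM in the NRG1 libraries. Group means stood at 26.5 ± 5.86 CPM for control and 48.4 ± 6.97 CPM for NRG1 (± SD, with n = 3 per group), which is a ratio of 1.82. The sum rested on 412, 248 and 281 expected counts in the control libraries and on 329, 563 and 483 in the NRG1 libraries. Before TMM scaling, the members' share was 33.3 CPM in control 1 (95% exact binomial interval 30.2 to 36.7) and 38.2 CPM in NRG1 1 (34.2 to 42.6), so the intervals of the nearest libraries of the groups overlapped. The intervals of NRG1 2 (48.8 to 57.6) and NRG1 3 (48.7 to 58.3) lay above those of all 3 controls. These intervals cover counting error only. In RNA from a whole culture, fewer cells of a kind and less of an RNA per cell cannot be told apart.

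H2A and H2B genes held most of the counts, 33.7% and 46.9% of the members' total. These shares cover the 34 matched members only, with 9 H2A and 10 H2B genes among them, and leave out the 35 unmatched symbols. The H2A sum was 11.8, 7.55 and 5.85 CPM in control and 16.9, 17.3 and 17.0 CPM in NRG1, and the H2B sum was 13.7, 13.0 and 11.8 CPM in control and 17.4, 24.3 and 25.0 CPM in NRG1. Both sums lay above all controls in every NRG1 library. The H4 sum also did not overlap, at 1.13, 0.805 and 0.924 CPM against 1.23, 2.24 and 2.82 CPM. The H1 sum (3.30, 1.71 and 1.46 against 2.59, 4.66 and 3.57 CPM) and the H3 sum (3.14, 1.91 and 1.62 against 2.22, 3.82 and 4.01 CPM) overlapped, with NRG1 1 inside the control range in both.

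**Figure D1:**
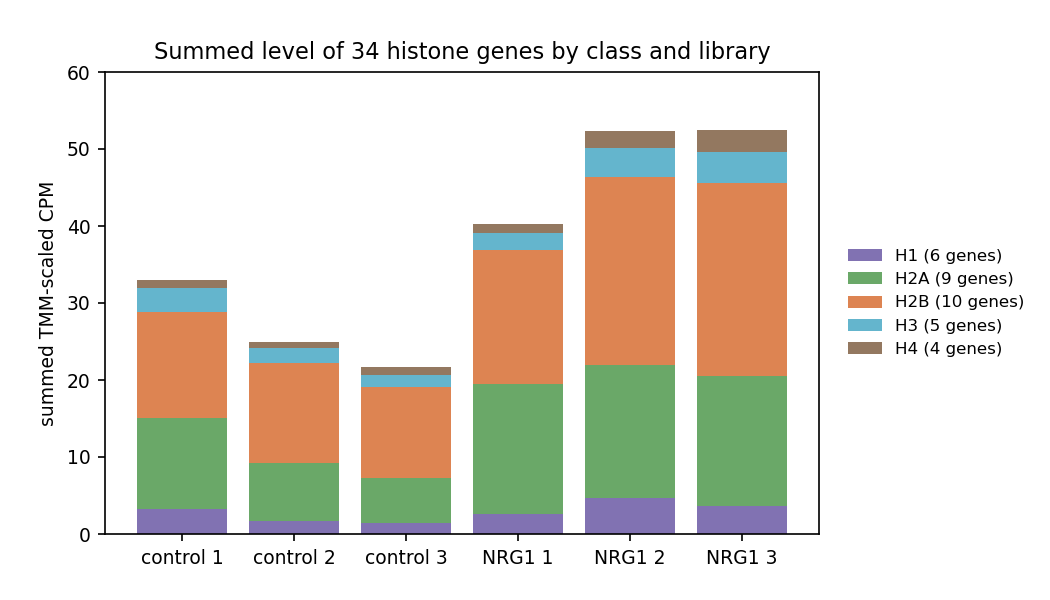
Summed TMM-scaled CPM of the 34 histone genes in each of the 6 libraries, stacked by histone class. The bars of NRG1 1 to 3 reach 40.3, 52.4 and 52.4 CPM, above the tallest control bar of 33.0 CPM, and the H2A and H2B parts make up most of every bar.

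Among the H2A genes, which encode the histone that dimerises with H2B, H2AC6, H2AC11 and H2AC25 each lay above all 3 controls in all 3 NRG1 libraries. H2AC6 (HIST1H2AC, ENSG00000180573, chromosome 6) was at 4.74, 2.42 and 1.62 CPM in control and at 6.29, 7.46 and 7.36 CPM in NRG1. The fitted log2 fold change was 1.26 (SE 0.41). Control 1 stood nearest to the NRG1 libraries, and control 3 was the lowest.

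H2AC11 (HIST1H2AG, ENSG00000196787, chromosome 6) was at 1.85, 2.01 and 0.462 CPM in control and at 4.81, 4.01 and 3.46 CPM in NRG1. NRG1 1 was the highest library here, and control 3 was far below the other controls, on 6 counts. The log2 fold change of 1.53 (SE 0.48) was 0.95 in the comparison of 2 against 2 libraries.

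H2AC25 (HIST3H2A, ENSG00000181218, chromosome 1) was at 3.30, 2.01 and 1.85 CPM in control and at 4.07, 4.85 and 4.44 CPM in NRG1, with a fitted log2 fold change of 0.90 (SE 0.35). The NRG1 libraries lay within a narrow range, above control 1. H2AC18 went the other way, with 1.53, 0.805 and 1.77 CPM in control and 0.493, 0.559 and 1.52 CPM in NRG1, with a fitted log2 fold change of -0.70 (SE 0.55), and its groups overlapped. That value was -0.26 without control 3 and NRG1 1, and from -1.38 (without NRG1 3) to -0.44 (without NRG1 2) with 1 library left out. H2AC18 has a near-identical copy, H2AC19, so its counts are uncertain.

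Among the H2B genes, H2BC12 (HIST1H2BK, ENSG00000197903, chromosome 6) was the member with the highest mean CPM. It was at 6.91, 5.64 and 6.01 CPM in control and at 8.26, 10.8 and 12.8 CPM in NRG1. The groups did not overlap, and the log2 fold change was 0.78 (SE 0.28). In the comparison of 2 against 2 libraries it was 0.89 and passed the threshold (adjusted p = 0.047 in edgeR).

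H2BC21 (HIST2H2BE, ENSG00000184678, chromosome 1), a gene known for its long polyadenylated mRNA, was at 3.70, 3.42 and 1.69 CPM in control and at 2.59, 7.55 and 6.82 CPM in NRG1. NRG1 1 lay inside the control range, and NRG1 2 and NRG1 3 lay above it. The log2 fold change was 0.98 (SE 0.47). Without control 3 and NRG1 1 it was 1.00 and passed the threshold (adjusted p = 0.0454 in edgeR).

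H2BC5 (HIST1H2BD, ENSG00000158373, chromosome 6) was at 0.563, 0.805 and 2.16 CPM in control and at 1.85, 2.52 and 1.52 CPM in NRG1. Here control 3 was the high control, above 2 of the NRG1 libraries, and the log2 fold change of 0.71 (SE 0.54) was 1.58 without control 3 and NRG1 1, 1.53 without control 3, 0.36 without control 1 and 0.47 without NRG1 2. H2BC18, under the filter, was at 0.482, 0.805 and 0.077 CPM in control and at 1.60, 0.932 and 1.41 CPM in NRG1. H2BC4, also under the filter, was at 0.322, 0.403 and 0.231 against 0.863, 0.839 and 0.541 CPM. Both genes lay above the controls in every NRG1 library, on 1.36 to 12.7 expected counts a library. H2BC11 and H2BC15 overlapped between the groups, at 0.804 to 1.19 and 0.541 to 1.01 CPM over all libraries.

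H1-2 (HIST1H1C, ENSG00000187837, chromosome 6), a linker histone that binds between nucleosomes, was the H1 gene with most of the class's counts, 150 of 181. It was at 2.49, 1.11 and 1.31 CPM in control and at 2.10, 4.47 and 2.82 CPM in NRG1, with a fitted log2 fold change of 0.94 (SE 0.46), or 0.57 without NRG1 2. NRG1 1 lay inside the control range. H1-3, H1-4, H1-5 and H1-6 had 1 to 11 expected counts over all 6 libraries, and H1-1 had none.

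The H3 genes H3C14 and H3C15 had the same expected counts in every library, as an even split of shared reads between near-identical copies gives, and they are in effect 1 measurement. Each was at 1.05, 0.906 and 0.539 CPM in control and at 0.740, 1.40 and 1.73 CPM in NRG1, with NRG1 1 inside the control range and a log2 fold change of 0.67 (SE 0.49), which was 0.41 without control 3 and 0.42 without NRG1 3. None of the 4 H4 genes passed the filter. H4C11 had 4.48, 0 and 3 expected counts in control and 6, 7.97 and 12 in NRG1, and its groups did not overlap, in CPM as well. H4C8 and H4C16 overlapped, and H4C3 had 2 counts in all.

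**Figure D2:**
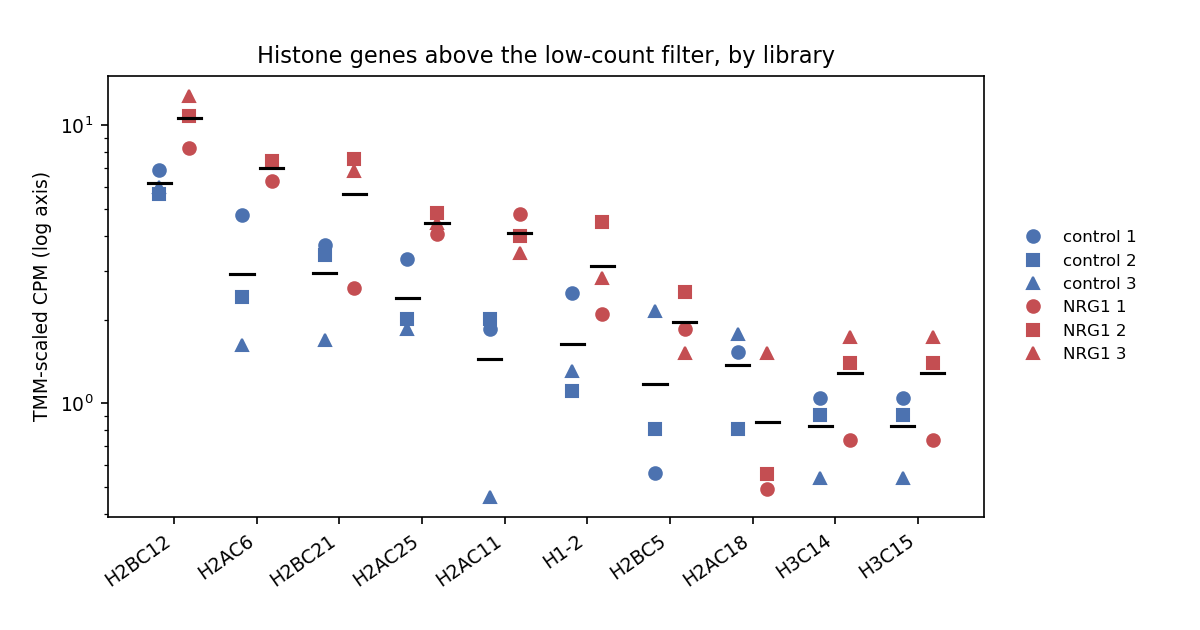
TMM-scaled CPM on a log axis of the 10 histone genes above the low-count filter, in order of their mean. Each point is 1 library and black bars are group means. In H2BC12, H2AC6, H2AC25 and H2AC11 all NRG1 points lie above all control points, and in H2AC18 the NRG1 mean is the lower.

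The 24 members under the filter, 5 of them without a count, summed to 5.87, 4.93 and 3.70 CPM in control and to 8.38, 7.36 and 8.23 CPM in NRG1, and these sums did not overlap. H1-1, H2AC1, H2AC7, H2BC1 and H2BC13 had no count. A count of 0 allows up to 3 counts, which is 0.231 to 0.370 CPM in these libraries. H2AC1 and H2BC1 are known as testis histone genes.

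With p-values of edgeR's quasi-likelihood test adjusted by Benjamini-Hochberg over all 15421 genes tested, no member passed the threshold of 0.05. The smallest adjusted p of a member was 0.358, for H2AC6 and H2AC11 alike, and the background of calls was 0.00648% of genes, which is NRG1 alone. DESeq2 called 1.36% of the same genes, 0.597% as higher and 0.759% as lower, and 0 of the 10 members. At an unadjusted p under 0.05, 4 of 10 members were higher (H2AC6, H2AC11, H2BC12 and H2AC25) and 0 lower, beside 5.08% of all tested genes higher and 6.72% lower. DESeq2 also gave 4 of 10, all higher, beside 5.4% of genes higher and 7.07% lower. The same 4 members had groups that did not overlap, beside 9.36% of tested genes above and 10.2% below. The median log2 fold change of the 10 was 0.84, beside 0.00034 over all genes tested. This median and the tallies of 10 count H3C14 and H3C15 separately, though their counts were the same in every library. Only 5 of the 10 had at least 10 counts in every control library, so the filter itself favoured members that are high in NRG1, and no support is drawn from the tally of these 10.

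Counts without that filter were as follows. Of the 29 members with a count, 25 had the higher mean CPM in NRG1 and 4 the lower (H2AC18, H2BC15, H1-4 and H1-5). In an edgeR fit of all 29827 genes with a rounded count above 0, 50.1% of genes had a fitted fold change above 0 and 49.9% below. Of the 34 members, 7 lay above all controls in all NRG1 libraries and 0 below, beside 6.11% and 7.55% of these genes. The 7 were the 4 named above with H2BC4, H2BC18 and H4C11. No member passed in that fit, where 0.0704% of genes did (0.0335% higher and 0.0369% lower). In it 6 members had an unadjusted p under 0.05 and were higher, beside 3.75% of genes higher and 5.44% lower. Members share reads and libraries, and they are not replicates of one another.

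Without control 3 and NRG1 1, edgeR called 9.84% of 15717 genes, 5.07% as higher and 4.77% as lower. It called 2 of 10 members, H2BC12 and H2BC21, both as higher, and 9 of 10 lay above both controls and 0 below, beside 29.4% and 28.8% of genes. The log2 ratio of summed member levels was then 0.85, against 0.87 with all libraries. Both libraries were removed because they stood apart, which narrows the spread in each group, and these p-values are therefore too small.

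Levels of different members can be compared only per length, here as mean CPM over all libraries per kilobase of exon in GENCODE 29. The gene models behind the deposited counts are not given in the sources used here. A gene with a longer model there would have a lower true level per kilobase. H2BC12 stood at 22.0 CPM per kilobase, on a model of 381 bases that holds the coding sequence only. H2AC25 followed at 3.82, H1-2 at 3.71, H2AC6 at 2.99, H2AC18 at 2.03, H2BC21 at 1.96, H2BC5 at 1.80, H4C11 at 1.49 and H2AC11 at 1.23 CPM per kilobase. Between neighbours in this order the ranges over the 6 libraries overlapped, except that H2BC12 lay above H2AC25 throughout.

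The 6 members named above as examples known for polyadenylated forms held 59.3% of all member counts. Their sum was 18.7, 13.8 and 13.0 CPM in control and 21.9, 33.6 and 31.8 CPM in NRG1. The other 28 members summed to 14.3, 11.2 and 8.62 CPM in control and to 18.4, 18.7 and 20.6 CPM in NRG1. Neither pair of groups overlapped, and the ratios of the means were 1.92 and 1.69. Whether these ratios differ was not tested. The other 28 are not known to lack polyadenylated forms. H2AC11, H3C14 and H3C15 among them have an annotated transcript that runs past the stem-loop and holds the hexamer near its end.

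By annotation, the 12 members with a transcript running past the stem-loop held 55.0% of the counts, and their sum was 18.1, 14.7 and 8.39 CPM in control and 23.3, 30.8 and 29.7 CPM in NRG1. Every one of these 12 had a count. Longer transcripts give more reads, and neither that share nor this tally is corrected for length. Their median level was 0.640 CPM per kilobase, with a range from 0.042 in H2BC26 to 3.82 in H2AC25. The 17 members with no annotated stem-loop had a median of 0.208 CPM per kilobase and 4 of them had no count. The 5 members whose stem-loop transcript ends near the stem-loop had a median of 1.49 CPM per kilobase, and 1 had no count. Of these, H2BC5 also has a longer annotated transcript, of 789 bases, in which no stem-loop was found. Their summed level overlapped between the groups, at 2.41, 1.81 and 4.16 CPM in control and 3.70, 4.10 and 4.33 CPM in NRG1.

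**Figure D3:**
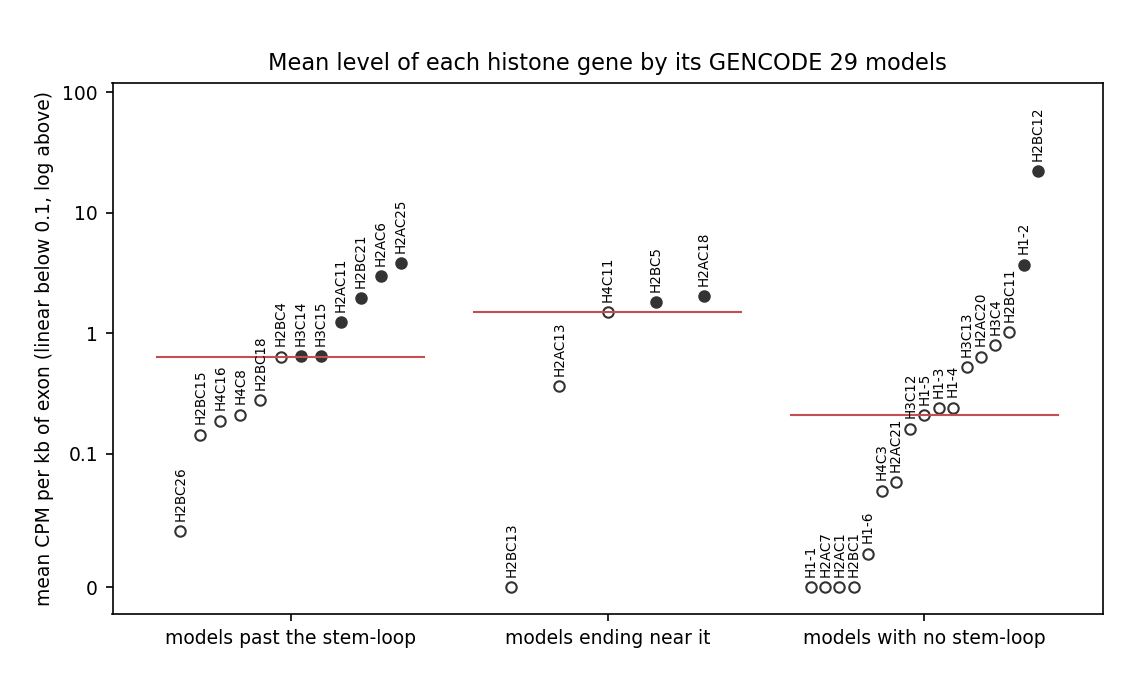
Mean CPM per kilobase of exon of each of the 34 histone genes, grouped by its GENCODE 29 transcripts, on an axis that is linear below 0.1 and logarithmic above. Only transcripts that hold a stem-loop decide between the left and middle groups, so H2BC5, with a longer transcript without it, is in the middle. Filled points passed the low-count filter, open points did not, and red lines are medians of 0.640, 1.49 and 0.208 CPM per kilobase from left to right. H2BC12 stands at 22.0 in the group without an annotated stem-loop.

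An H2A and an H2B gene on opposite strands, with starts at most 1000 bases apart, formed 6 pairs among the members, with 219 to 323 bases between the starts. Partners shared an upstream region but often not a level. H2AC25 was at 3.82 CPM per kilobase and its partner H2BC26 at 0.042, on 211 and 6.28 expected counts. H2AC6 was at 2.99 and H2BC4 at 0.639 CPM per kilobase, and H2BC21 was at 1.96 and H2AC20 at 0.637. H2AC11 and H2BC11 were close, at 1.23 and 1.01 CPM per kilobase. H2AC13 had 10.4 expected counts and H2BC13 none, and H2AC1 and H2BC1 both had none. Since the lengths come from another annotation than the authors', the sizes of these ratios are uncertain.

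Genes of DNA replication are given beside the members because histone mRNA normally accumulates in S phase. Summed over all 28 genes of the S phase and replication list in the table, which the most abundant of them dominate, the level was 3903, 3576 and 3934 CPM in control and 4300, 3111 and 2996 CPM in NRG1. NRG1 1 lay above the controls and NRG1 2 and NRG1 3 below them. Of these 28 genes, 8 had a log2 fold change above 0 and 20 below, and at an unadjusted p under 0.05 none was higher and 6 were lower. None passed adjustment. E2F1, which drives transcription at the start of S phase, stood at 97.2, 145 and 156 CPM in control and 84.9, 82.7 and 77.7 CPM in NRG1. CDC6, which loads the replicative helicase, was at 122, 149 and 267 CPM in control and 122, 50.3 and 49.7 CPM in NRG1, so that NRG1 1 lay just under control 1.

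Factors that make and use histone mRNA and protein are given next. SLBP was at 116, 138 and 156 CPM in control and 145, 119 and 114 CPM in NRG1, and NPAT, the coactivator of histone gene transcription, was at 29.6, 33.2 and 58.6 CPM in control and 40.4, 27.6 and 29.8 CPM in NRG1. Both overlapped. Of 23 tested genes of histone mRNA processing and decay, 9 had a log2 fold change above 0 and 14 below, and 1 had an unadjusted p under 0.05. That gene was UPF1, a helicase of mRNA decay that also acts on histone mRNA, at 214, 202 and 213 CPM in control and 150, 147 and 147 CPM in NRG1 (log2 fold change -0.50, SE 0.13, adjusted p = 0.318 in edgeR). Among 18 histone chaperones, 11 were above 0 and 7 below. Their sum was 3031, 3022 and 2812 CPM in control and 3611, 3087 and 3136 CPM in NRG1, without overlap. The most abundant of them, NAP1L1, weighs most in that sum, at 629, 656 and 636 CPM in control and 838, 711 and 741 CPM in NRG1. Of the 18 genes, 4 lay above all controls in every NRG1 library and 4 lay below. CHAF1A, a subunit of the factor that deposits new histones at replication forks, was at 96.2, 86.2 and 137 CPM in control and 62.8, 49.6 and 45.4 CPM in NRG1. ASF1B, a chaperone of H3 and H4, was at 69.4, 60.4 and 79.8 against 55.1, 34.9 and 36.4 CPM. No gene of either list passed adjustment, and CHAF1A and ASF1B were the 2 chaperones with an unadjusted p under 0.05.

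Variant histones, many of which are made outside S phase from ordinary polyadenylated mRNAs, though H2AX is known for both kinds of mRNA and CENPA for its own timing in the cell cycle, had a median log2 fold change of 0.26, with 9 of 11 tested genes above 0, and 0 of the 11 passed adjustment. H3-3B, a gene of the replacement histone H3.3, was at 422, 393 and 388 CPM in control and 672, 470 and 486 CPM in NRG1, with a fitted log2 fold change of 0.44 (SE 0.17). Its groups did not overlap, and its largest value was that of NRG1 1.

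**Figure D4:**
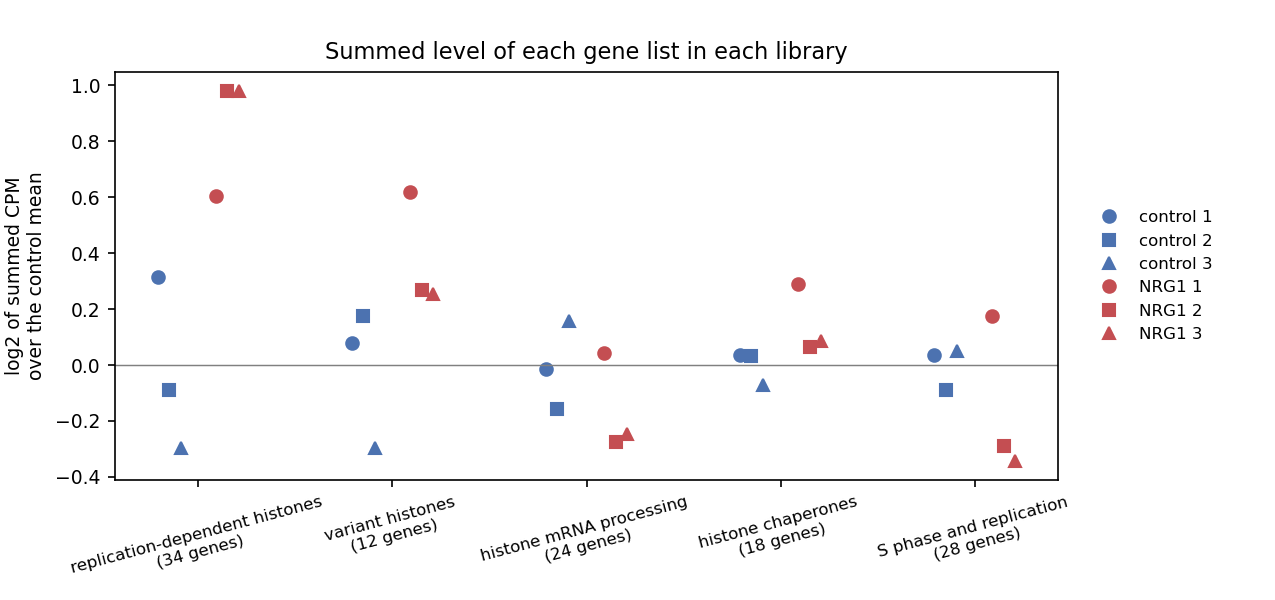
Log2 of each list's summed TMM-scaled CPM over its mean in the controls, for each of the 6 libraries, with all genes of a list found in the table and no filter on low values. The NRG1 points of the 34 replication-dependent histones (0.60, 0.98 and 0.98) lie above the control points. So do those of the variant histones (0.62, 0.27 and 0.25) and, by less, of the histone chaperones (0.29, 0.063 and 0.086). The S phase points of NRG1 2 and NRG1 3 (-0.29 and -0.34) lie below the controls while that of NRG1 1 (0.18) lies above.

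RNAs that lack a polyA tail are given for those that could be matched. Of 30 listed small nuclear, nucleolar, vault and related RNAs and MALAT1, 22 were in the table and 5 had a count. RN7SK, RN7SL1, RN7SL2, RPPH1 and RMRP were not matched, so their levels are not known here. Without MALAT1, whose end is A-rich without being polyadenylated, the sum was 1.69, 0.906 and 2.16 CPM in control and 0.493, 0.280 and 1.52 CPM in NRG1. That sum was not higher in the NRG1 libraries, but it rests on few counts. Carry-over of histone mRNA without a polyA tail was not tested. MALAT1 was at 496, 503 and 195 CPM in control and 198, 520 and 572 CPM in NRG1, low in control 3 and NRG1 1.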

How the data were processed

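PolyA RNA libraries (3 control, 3 NRG1) were made with Illumina's TruSeq v2 reagents, per the labels' protocols. Per the submitters' processing notes, the tools were FastQC 0.11.3, MultiQC 0.9, RSEM 1.3.0 and STAR 2.5.3a and the build was hg19, with no roles given. The deposited expected counts were not scaled, and RSEM divides reads that fit several genes between them. The deposited log2 values of 14759 genes, 7 of them members, matched log2 CPM recomputed from those counts and were not used further. The files held 0 columns of other samples.

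After rounding, the counts went into edgeR 4.0.16 under R 4.3.3 (quasi-likelihood test, filterByExpr, TMM scaling, no covariate, Benjamini-Hochberg over 15421 genes, threshold 0.05). Printed levels are CPM from rounded counts after TMM scaling, and a gene's group means carry the SD. Symbols came from a name table that matched 51959 of 57736 identifiers. The members and all gene lists were chosen with earlier results of these data known. Named were the 10 members with the highest mean, tested members whose groups did not overlap, the 5 with the smallest p in each direction, and up to 4 genes of each other list with the smallest p, with SLBP and NPAT. H2BC4, H2BC18, H4C11 and other members under the filter, and KRT5 and TP63, were named after their values were seen. Some genes that this rule names are not reported here. Alternatives were DESeq2 1.42.0, limma 3.58.1 (trend and voom), other scalings and filters, a replicate block and leaving out libraries; edgeR's older dispersion method and a median with H3C14 and H3C15 counted once were chosen after seeing the data. On simulated counts of 15421 genes in the 3 against 3 comparison, edgeR called 21 of the 100 genes given a 2-fold change. It called 75 of the 100 given a 4-fold change and made 5 false calls. The changed genes were drawn at random from all tested genes, so these rates need not hold for the members, whose counts are low. Depth of 8612234 to 13207620 counts limits precision, since most members had under 10 counts in every library (21 of 34).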

Additional observations from a re-analysis of the deposited data

How the results depend on the processing

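Across the alternatives, 168 values of the 10 tested members kept their direction and their side of the threshold, 0 changed direction, and 2 crossed the threshold, H2BC12 and H2BC21 in the comparison of 2 against 2 libraries. That comparison called 1547 genes and 2 members, with 9 members whose groups did not overlap, all above, beside 58.2% of all tested genes (29.4% above). The number of all genes called was 1 in the reported fit, 209 in DESeq2, 21 without the filter, and 2 in limma-trend with either pseudocount, in limma-voom and with the replicate block. The replicate block left 2 members at an unadjusted p under 0.05 in place of 4. Leaving out each library in turn gave 1 to 50 genes called (50 without NRG1 1), 2 to 6 members at an unadjusted p under 0.05 (2 without NRG1 3), 5 to 9 members whose groups did not overlap (9 without NRG1 1), beside 23.4% to 44.7% of all tested genes, a median log2 fold change of 0.71 to 1.20 (1.20 without control 1) and a log2 ratio of summed levels of 0.73 to 1.05. Without control 2 and without NRG1 3, 1 of these members, H2AC18, lay below the controls. Scaling by library totals, upper quartile or DESeq2 left that ratio at 0.84 to 0.91. Same-numbered libraries had correlations of deviations of 0.020, 0.12 and -0.080, within the range of -0.18 to 0.16 for libraries of different numbers. These values showed no pairing by number, but with 3 libraries per group they cannot exclude it. At these depths most H1, H3 and H4 members were too low for a difference to be detectable.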

Other observations

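Histone-like loci just outside the naming rule had counts too. H2BC20P (HIST2H2BC, ENSG00000261716), annotated as a transcribed pseudogene on chromosome 1, was at 13.7, 12.2 and 10.5 CPM in control and at 8.63, 13.4 and 15.9 CPM in NRG1, with a log2 fold change of 0.06 (SE 0.29). It held 790 expected counts over the 6 libraries, against 520 for H2BC12, the member with the most. H2BC19P, a second transcribed pseudogene of the H2B family, was at 1.53, 1.01 and 1.08 CPM in control and at 0, 0.280 and 1.73 CPM in NRG1. The groups overlapped in both genes, so neither showed the pattern of H2BC12 and H2AC6. In all, 14 genes of the table had a family name ending in P, and 5 of them had any count. Reads that fit both a pseudogene and a member were shared between them by estimate, so these values are uncertain.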
